A study of Mus musculus with 60 samples.

Results

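The genes described are 10 components of the circadian clock, Per1, Per2, Per3, Cry1, Cry2, Clock, Npas2, Nr1d1, Dbp and Bhlhe40. They were chosen by name, and their peaks are those to which the deposited tables give one of these 10 symbols. They made up 121 of 256375 peaks in 12 lists, 66 of the acetylated histone mark H4K8ac and 55 of the trimethylated mark H3K27me3, and all 10 genes had at least 1 peak among the 16994 symbols listed. Nuclei came from the hippocampus of male Emx1-NuTRAP mice. In these mice the Cre recombinase is expressed from the Emx1 locus, so nuclei and ribosomes are tagged in cells with a history of Emx1 expression, mainly excitatory neurons. Early-life exercise (ELE) was free access to a running wheel between postnatal days 21 and 41, sedentary littermates lived without a wheel, and tissue was taken after that period in both. In the simultaneous isolation (SIT), nuclei and RNA came from 1 homogenate of both hippocampi, and in the separate isolations nuclei came from the left or the right hippocampus alone. The 60 libraries fell into 18 groups by antibody (H4K8ac, H3K27me3 or IgG), condition and isolation, with 4 in each SIT group and 3 in each left or right group. The 20 IgG libraries are not analysed here.

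The clock of mammalian cells is a feedback loop of transcription. CLOCK, or its relative NPAS2, pairs with BMAL1 and binds E-box sequences in the Per and Cry genes, and the PER and CRY proteins then inhibit that pair. NR1D1 (REV-ERB alpha) represses Bmal1 in an interlocked loop, DBP is an output factor that binds D-box sequences, and BHLHE40 is a repressor that competes for E-boxes. Per1 also responds to neuronal activity through cAMP response elements. H4K8ac is found at active promoters and enhancers, and H3K27me3 is the mark of Polycomb repression. Mice were kept on a light and dark cycle, and the hour of collection is not given in the sources used here.

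Each list held the pooled peaks of 1 group, so the 6 lists of a mark were 6 single values with no SD. The 3 isolations could not give a sign-flip p under 0.25, so counts are given without a test. The H4K8ac lists held 12168 to 38136 peaks and the H3K27me3 lists 9899 to 25693, and the depth behind each list is not given in the files. Some exercised H4K8ac libraries, of the separate isolations and of SIT, had been left out by the authors for a high false discovery rate. Outliers were also removed in the sequencing experiments, so fewer libraries than the group sizes above may stand behind any list of either mark and condition, and which ones is not given in the sources used here. The exercised left and right lists were the shortest of that mark. In bulk nuclei, a mark carried by fewer nuclei and a weaker mark in each nucleus cannot be told apart. As a check of the labelled cells, H4K8ac lay at the promoters of 4 to 6 of 10 excitatory neuron markers in each list, of 0 of 8 GABAergic and 0 of 3 endothelial markers, and of 0 to 3 of 5 astrocyte, 1 to 2 of 5 oligodendrocyte and 1 to 2 of 5 microglial markers. H3K27me3 lay at the promoters of 1 to 2 excitatory, 5 to 7 GABAergic, 2 to 3 astrocyte, 2 endothelial, 1 to 2 oligodendrocyte and 1 to 2 microglial markers.

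Clock genes had H4K8ac peaks in every list, and Cry1 alone had H3K27me3 peaks. In the SIT lists, 8 of the 10 genes had an H4K8ac peak in exercised mice, where 41.2% of the 21923 protein-coding genes had one, and 6 did in sedentary mice, where 32.8% of all genes did. In the left lists, 4 genes had a peak in exercised mice (19.6% of all genes) and 9 in sedentary mice (39.4%). In the right lists, 6 genes had one in exercised mice (22.1%) and 5 in sedentary mice (31.6%). The share of clock genes was above that of all genes in each of the 6 lists, and the 2 longest lists held the most clock genes. The clock genes were also longer, with a median of 35.7 kb beside 17.4 kb for protein-coding genes, and the part of length in these shares was not tested. For H3K27me3 the count was 1 of 10 in every list. All protein-coding genes with such a peak came to 24.5% in exercised SIT, 14.5% in sedentary SIT, 19.7% in exercised left, 17.7% in sedentary left, 13.3% in exercised right and 23.0% in sedentary right. The plot of shares sets the clock genes beside all genes.

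**Figure D1:**
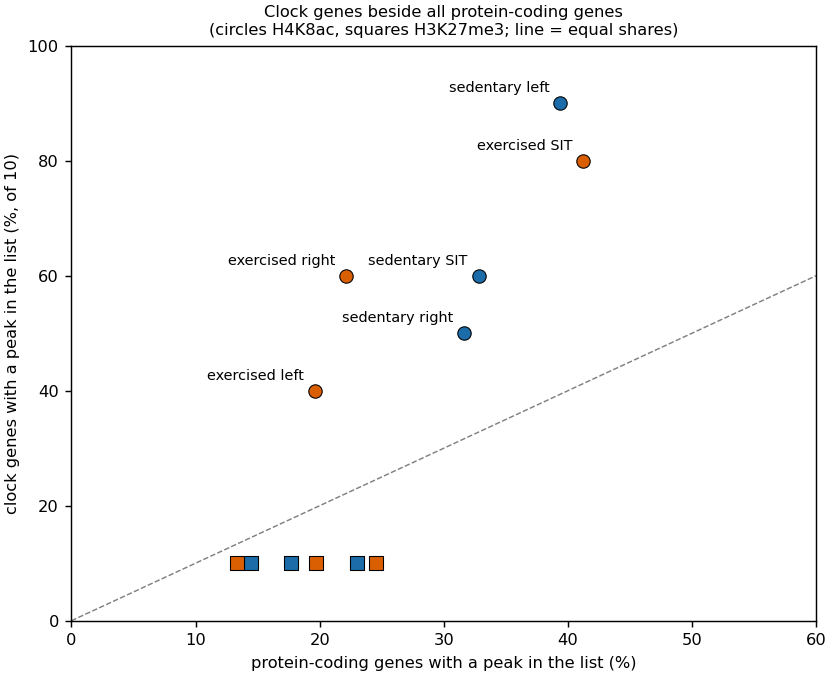
Share of the 10 clock genes with a peak (vertical axis, percent) against the share of all protein-coding genes with a peak (horizontal axis, percent), 1 point per pooled list, orange for exercised and blue for sedentary. The H4K8ac circles lie between 40.0 and 90.0%, above the line of equal shares, and the H3K27me3 squares, at 1 gene of 10 each, all lie below it.

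The comparison of exercised with sedentary lists asks where ELE adds or removes each mark. A gene was called gained where it had a peak in the exercised list alone, lost where it had one in the sedentary list alone, and shared where it had one in both. In SIT, Per1 and Dbp were gained in H4K8ac, none of the 10 was lost and 6 were shared, of 8 listed in either condition. Of all genes listed in that isolation, 27.5% were gained and 10.1% lost. In the left lists no clock gene was gained, where 3.58% of listed genes were, and Per3, Cry1, Clock, Dbp and Bhlhe40 were lost, 5 of 9 listed, where 51.9% were. In the right lists Per2 and Cry1 were gained, 2 of 7 listed, beside 9.14% of listed genes, and Per1 was lost, 1 of 7, beside 36.7%. Counts of cell type markers with an H4K8ac peak of any class follow, exercised before sedentary, in SIT, left and right. Astrocyte markers (of 5) came to 4 and 1, 2 and 5, and 1 and 3. Excitatory markers (of 10) came to 9 and 9, 7 and 10, and 8 and 10. GABAergic markers (of 8) came to 3 and 2, 2 and 2, and 2 and 1. Oligodendrocyte markers (of 5) came to 2 and 3, 1 and 1, and 2 and 2. Microglial markers (of 5) came to 2 and 1, 1 and 1, and 2 and 2. Endothelial markers (of 3) came to 1 in each list. Astrocyte markers with a promoter peak came to 1 and 0, 1 and 3, and 0 and 1. The part of these cells in the clock gene counts was not tested. No clock gene was gained in all 3 isolations or lost in all 3, and the share of all genes that were was not computed. The longer list of each isolation was also reduced to its widest peaks, which changes both its length and the widths it holds. The left lists then had 2 gained genes (Per1 and Npas2) and 2 lost (Clock and Dbp). The right lists had 4 gained and 0 lost, and SIT kept its 2 gained genes, Per1 and Dbp. The shares of all genes gained and lost in the reduced lists were not computed.

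**Figure D2:**
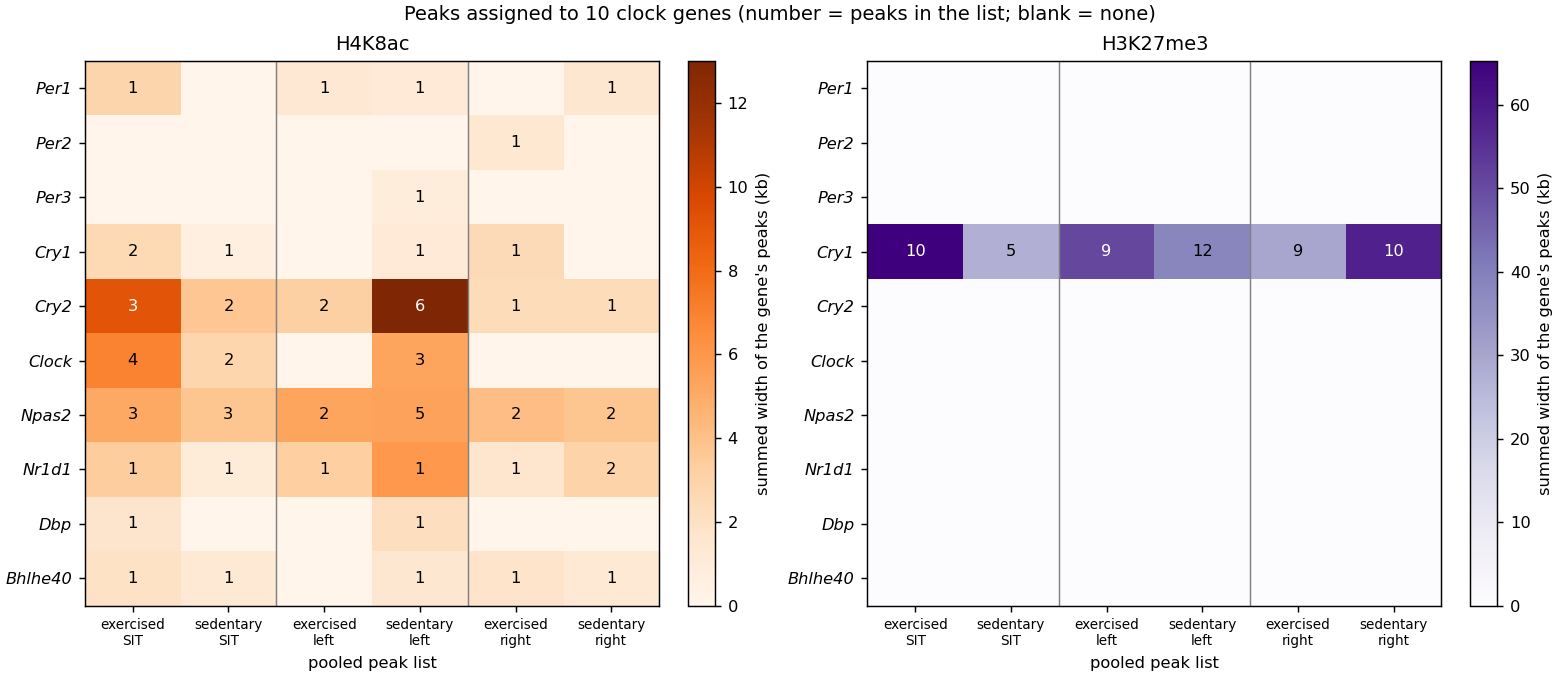
Peaks assigned to each clock gene (rows) in each pooled list (columns) for H4K8ac, left, and H3K27me3, right. Shading gives the summed width of the peaks in kb and the number printed in a cell gives how many there were, from 1 to 6 per gene for H4K8ac and from 5 to 12 for H3K27me3, which is filled for Cry1 alone.

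The 66 H4K8ac peaks merged into 32 regions, of which 18 were seen in 1 list, 7 in 2, 2 in 3, 1 in 4, 2 in 5 and 2 in all 6. Of all H4K8ac regions, merged without regard to gene, 49.9% were seen in 1 list, 17.9% in 2, 11.2% in 3, 8.34% in 4, 6.74% in 5 and 5.99% in all 6. Among the 14 cases of a gene shared within an isolation, exercised and sedentary peaks overlapped in 12. The exceptions, 2 of 14, were Nr1d1 in SIT and Per1 in the left lists, and over all genes 13.6% of such cases had no overlap. The annotation called 39.4% of the clock gene peaks promoter, against 23.5% of all H4K8ac peaks, 19.7% exon against 7.55%, 16.7% intron against 37.4% and 24.2% distal intergenic against 28.3%. Of the 13 exon peaks, 6 were those of 1 Npas2 region and 3 those of a Cry1 upstream island at an exon of a non-coding transcript, both described below. Promoter here means within 3 kb of any transcript's start. Of the 24 cases of a clock gene with a promoter peak in a list, 20 had a peak that near to the first start of the gene, and that first start itself lay inside a peak in 5 of 60 cases, beside 10.1% over all protein-coding genes (4.74 to 18.5% from list to list). The median width was 1621 bp, beside 1620 bp for all H4K8ac peaks.

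Among the activators of the loop, Npas2 carried H4K8ac in all 6 lists and its relative Clock in 3. Npas2 (chr1:39193731-39363236, plus strand, 169.5 kb in GRCm38) had 3 peaks in exercised SIT, 3 in sedentary SIT, 2 in exercised left, 5 in sedentary left, 2 in exercised right and 2 in sedentary right. Their summed width was 5131 bp, 3761 bp, 5382 bp, 5461 bp, 4130 bp and 3768 bp in the same order. This was the narrowest spread among the genes seen in every list, and exercised and sedentary values overlapped. The start of Npas2 was inside a peak in 4 lists, both left lists, exercised SIT and sedentary right, within a merged region of chr1:39192247-39196294. A region 2.58 kb past the end of the gene, chr1:39365815-39368393, was under a peak in exercised SIT and sedentary left and was assigned to Rpl31.

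The one Npas2 region common to all 6 lists was not its promoter. It spanned chr1:39310972-39314964, 117.24 to 121.23 kb into the gene, and held exons 6 and 7 of 21. Of its 3993 bp, 195 bp (chr1:39312465-39312659) were inside the peak of every list, and these lie in the intron between the exons, which run from 39311841 to 39311961 and from 39312955 to 39313068. The 300 bases around them are shown because they are the only clock gene bases under an H4K8ac peak in all 6 lists. Capitals mark the 195 shared bases (chr1:39312413-39312712, GRCm38, plus strand).
Npas2 intron 6: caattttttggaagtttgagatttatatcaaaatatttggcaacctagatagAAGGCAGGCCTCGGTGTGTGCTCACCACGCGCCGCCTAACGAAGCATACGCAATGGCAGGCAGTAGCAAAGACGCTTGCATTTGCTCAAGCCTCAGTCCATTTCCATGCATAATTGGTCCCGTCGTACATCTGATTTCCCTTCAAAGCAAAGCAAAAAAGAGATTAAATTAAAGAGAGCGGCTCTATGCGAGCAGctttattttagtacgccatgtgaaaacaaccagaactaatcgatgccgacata
None of the 5 motifs searched for below falls in this window. The level of the IgG control over it is not analysed here.

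Clock (chr5:76209868-76304792, minus strand) had 4 peaks in exercised SIT (6920 bp), 2 in sedentary SIT (2818 bp) and 3 in sedentary left (5355 bp), and none in the other 3 lists. All 9 were inside the gene, from 28.59 to 66.32 kb after its start. They formed 7 regions, 2 of which were seen in 2 lists and none in 3. A peak over the upstream side of the Clock start, chr5:76304864-76305902 in sedentary left, was assigned to the neighbour Gm7467, whose start lies 0.1 kb away. It was the one H4K8ac peak that near to the first Clock start. One exercised SIT peak, chr5:76274525-76276205, was classed as promoter for a later start inside the gene, so by promoter peaks Clock was gained in SIT. Sedentary left had a further peak near the far end of the gene, chr5:76212072-76213392, which was assigned to Tmem165.

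Of the inhibitors, Per2 and Per3 each had H4K8ac in 1 list and Per1 in 4. Per2 (chr1:91415982-91459324) had 1 peak, in exercised right, of 1375 bp and 1.01 to 2.39 kb after its start. Per3 (chr4:151003652-151044665) also had 1, in sedentary left, of 865 bp and 0.32 to 1.18 kb before its start. In the other lists the nearest H4K8ac peak lay 45.0 to 251.4 kb from the Per2 start and 36.5 to 55.9 kb from the Per3 start. The nearest one to Per2, chr1:91412994-91414372 in exercised SIT, lay 1.61 kb past the end of the gene and was assigned to Hes6. Counted by position within 3 kb of the gene, Per2 was thus gained in SIT as well as in right. Neither gene had an H3K27me3 peak in any list, and the nearest such peak was at least 91.8 kb from Per2 and 140.2 kb from Per3.

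Per1 (chr11:69095217-69109960, plus strand) had 1 peak in each of 4 lists. Its width was 2882 bp in exercised SIT, 1335 bp in exercised left, 1194 bp in sedentary left and 1489 bp in sedentary right, and the other 2 lists had none. The 4 peaks fell at 2 places that did not touch. Exercised left and sedentary right shared 1335 bp at chr11:69093419-69094753, before the first start of the gene. Exercised SIT and sedentary left shared 945 bp at chr11:69097258-69098202, between that start and the start that RefSeq uses. Each place thus held 1 exercised and 1 sedentary list. In the left isolation Per1 counted as shared although its exercised and sedentary peaks had no base in common.

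Motifs of the clock and of cAMP signalling were searched for on both strands, namely the E-box CACGTG, the variant E-box CACGTT, the D-box TTATGTAA, the cAMP response element TGACGTCA and the REV-ERB/ROR element TAGGTCA or TGGGTCA. No motif of these 5 contains another. In the RefSeq promoters of GRCm38.p6 (250 bases before to 50 after a start), 7.15% of 32851 promoters held the E-box, 4.68% its variant, 0.938% the D-box, 1.79% the cAMP response element and 6.45% the REV-ERB/ROR element. Of the 10 clock genes 8 matched this table (Per2 and Bhlhe40 did not), with 11 promoters. A gene was counted where any of its promoters held the motif, while the shares above are of single promoters. The E-box was in the promoters of Per1 and Cry1, the variant in those of Cry1, Cry2 and Nr1d1, and the D-box in that of Per3. Neither other element was found in any of the 8. In the 300 bases at the centre of the 32 clock gene regions, the E-box was in 3 and the REV-ERB/ROR element in 3, where 3.86% and 6.09% of the 63513 H4K8ac regions held them. The variant was in 1 (4.63% of all regions), the D-box in 2 (2.1%) and the cAMP response element in 0 (0.287%). Over the whole length of the 32 regions, 69.7 kb, there were 15 E-boxes, 12 variants, 7 D-boxes, 2 cAMP response elements and 23 REV-ERB/ROR elements. Per 10 kb these came to 2.15, 1.72, 1.0, 0.287 and 3.3, beside 1.31, 1.51, 0.68, 0.0857 and 2.31 over the whole of all H4K8ac regions.

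The promoters with an E-box or D-box are shown to set the letters beside the peaks, with the motifs in capitals. The Per1 promoter (chr11:69098699-69098948, plus strand) lay under the H4K8ac peak of exercised SIT alone. The Cry1 promoter (chr10:85185055-85185304, minus strand) and the Per3 promoter (chr4:151044666-151044915, minus strand) were under no H4K8ac peak in any list. Each is given as the 250 bases before the RefSeq start. The further Per1 sequence (chr11:69097624-69097729, plus strand) holds the E-box that lay under the peaks of both exercised SIT and sedentary left.
Per1 promoter: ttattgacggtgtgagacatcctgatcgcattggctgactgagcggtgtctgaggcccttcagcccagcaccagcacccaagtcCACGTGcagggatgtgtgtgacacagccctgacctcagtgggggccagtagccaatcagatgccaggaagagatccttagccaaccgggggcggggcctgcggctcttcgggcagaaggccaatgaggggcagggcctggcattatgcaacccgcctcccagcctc
Per1 E-box between starts: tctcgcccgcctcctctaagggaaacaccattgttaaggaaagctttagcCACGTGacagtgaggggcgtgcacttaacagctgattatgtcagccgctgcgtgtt
Cry1 promoter: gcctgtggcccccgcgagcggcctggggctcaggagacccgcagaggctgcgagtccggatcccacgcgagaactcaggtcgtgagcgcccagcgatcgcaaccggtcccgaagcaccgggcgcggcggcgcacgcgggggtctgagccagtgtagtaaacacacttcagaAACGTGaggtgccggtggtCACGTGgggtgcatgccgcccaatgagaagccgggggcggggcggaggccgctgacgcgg
Per3 promoter: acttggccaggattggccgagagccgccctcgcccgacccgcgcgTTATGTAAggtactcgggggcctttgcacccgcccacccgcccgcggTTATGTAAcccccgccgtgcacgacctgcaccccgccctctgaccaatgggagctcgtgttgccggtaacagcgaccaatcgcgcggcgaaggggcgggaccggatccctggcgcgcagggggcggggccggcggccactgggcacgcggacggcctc
Across the whole second Per1 region, chr11:69097009-69100139, there were 3 E-boxes, 1 variant, 1 cAMP response element and 1 REV-ERB/ROR element in 3131 bp. The first region, chr11:69093271-69094759, held a D-box alone.

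The Cry genes, whose proteins are the main inhibitors of the CLOCK pair, differed in both marks. Cry2 (chr2:92403646-92434043, minus strand) had H4K8ac in all 6 lists, with 3 peaks in exercised SIT, 2 in sedentary SIT, 2 in exercised left, 6 in sedentary left, 1 in exercised right and 1 in sedentary right. The summed widths were 9107 bp, 3748 bp, 3242 bp, 13004 bp, 2367 bp and 2377 bp in the same order. Sedentary left was the highest and the right lists the lowest. Each list had a peak in the stretch 3.21 to 10.47 kb upstream of the start (chr2:92437248-92444516), but no base was common to all 6. Sedentary SIT covered the nearer part, exercised left the farther part, and exercised SIT covered 5977 bp between 92437248 and 92443224. A further region 11.23 to 13.05 kb upstream was seen in exercised SIT and both left lists. The start of Cry2 was inside a peak in sedentary SIT alone. At the other end, 0.11 kb past the gene, a region at chr2:92400309-92403533 was under a peak in exercised right, sedentary left and sedentary right and was assigned to Mapk8ip1.

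Cry1 (chr10:85131700-85185064, minus strand) had H4K8ac in 4 lists, 2581 bp in exercised SIT, 653 bp in sedentary SIT, 1134 bp in sedentary left and 2478 bp in exercised right. None was at its promoter, and the nearest edge lay 22.0 kb from its start. In 3 of the lists, exercised SIT, sedentary SIT and sedentary left, the peaks overlapped at an upstream island, chr10:85220730-85222097, which reaches into the last exon of the non-coding transcript Gm38575. They shared 483 bp, chr10:85221387-85221869. These bases held 2 E-boxes, shown in capitals within chr10:85221468-85221573 and chr10:85221773-85221878 (minus strand, like the gene).
Cry1 island E-box a: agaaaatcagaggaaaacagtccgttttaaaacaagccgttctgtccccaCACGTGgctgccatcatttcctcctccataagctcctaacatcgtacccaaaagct
Cry1 island E-box b: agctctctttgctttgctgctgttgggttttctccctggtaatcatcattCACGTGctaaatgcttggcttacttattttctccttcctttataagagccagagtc
The exercised right peak lay elsewhere, 22.04 to 24.52 kb inside the gene.

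The same upstream stretch of Cry1 carried a broad H3K27me3 domain in all 6 lists. Its peaks reached from chr10:85187572 to chr10:85281256, 93.7 kb in all, starting 2.51 kb and ending 96.19 kb upstream of the Cry1 start. There were 10 peaks in exercised SIT, 5 in sedentary SIT, 9 in exercised left, 12 in sedentary left, 9 in exercised right and 10 in sedentary right. The non-coding gene Gm38575 (chr10:85220942-85266392, minus strand) lies wholly within this stretch, with its start 81.3 kb upstream of Cry1. Of the 55 peaks, 29 lay over Gm38575 in part or whole, and in 5 lists one lay over its start. The start and the body of Cry1 had none. Only exercised SIT had a peak classed as promoter, 2.51 to 4.57 kb upstream, and in the other lists the domain began 7.0 to 9.4 kb away.

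Exercised SIT covered 65.2 kb of the domain and sedentary SIT 27.5 kb, a ratio of 2.38, where all H3K27me3 peaks of those lists covered bases in a ratio of 1.88. In the left lists the exercised value was 50.5 kb and the sedentary 38.1 kb, a ratio of 1.33 beside 1.25 for all peaks. In the right lists the order turned, with 29.6 kb in exercised and 58.2 kb in sedentary mice, a ratio of 0.509 beside 0.36. The direction at Cry1 was that of the whole list in each isolation, and the exercised and sedentary values overlapped. As a gene Cry1 was shared in every isolation. The other 9 genes were in neither list, where 41.4% of listed genes were gained and 1.02% lost in SIT, 18.5% and 9.13% in left, and 3.12% and 43.6% in right.

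Within the 93.7 kb, 12.7 kb were covered in all 6 lists, in 5 runs of 514 to 4112 bp, and 20.5 kb in none. The longest run began 57.27 kb and ended 61.38 kb upstream. One of the gaps, chr10:85221473-85223352 (1880 bp), is where the H4K8ac island of 3 lists entered the domain, and it was the only gap with H4K8ac. The marks met at its edge. In exercised SIT the H4K8ac island shared 743 bp with H3K27me3 of the same isolation and condition, in sedentary left it shared 84 bp and in sedentary SIT 0. A second exercised SIT peak of 1213 bp, 29.57 to 30.78 kb upstream, lay wholly inside H3K27me3. The lists come from pooled nuclei, so whether both marks sat on the same chromosomes was not measured.

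Where the stretch named for Cry1 ends depends on how peaks were assigned to genes. The tables measured all 55 peaks from the Cry1 start, also those over the start of Gm38575. The midpoint between the starts of Cry1 and Btbd11, the next protein-coding gene upstream, lies 100.9 kb from Cry1. The first peak given to Btbd11 began 96.5 kb upstream, and 16 to 26 peaks per list followed it within 250 kb. By position the H3K27me3 peaks thus ran on past the last one named for Cry1.

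**Figure D3:**
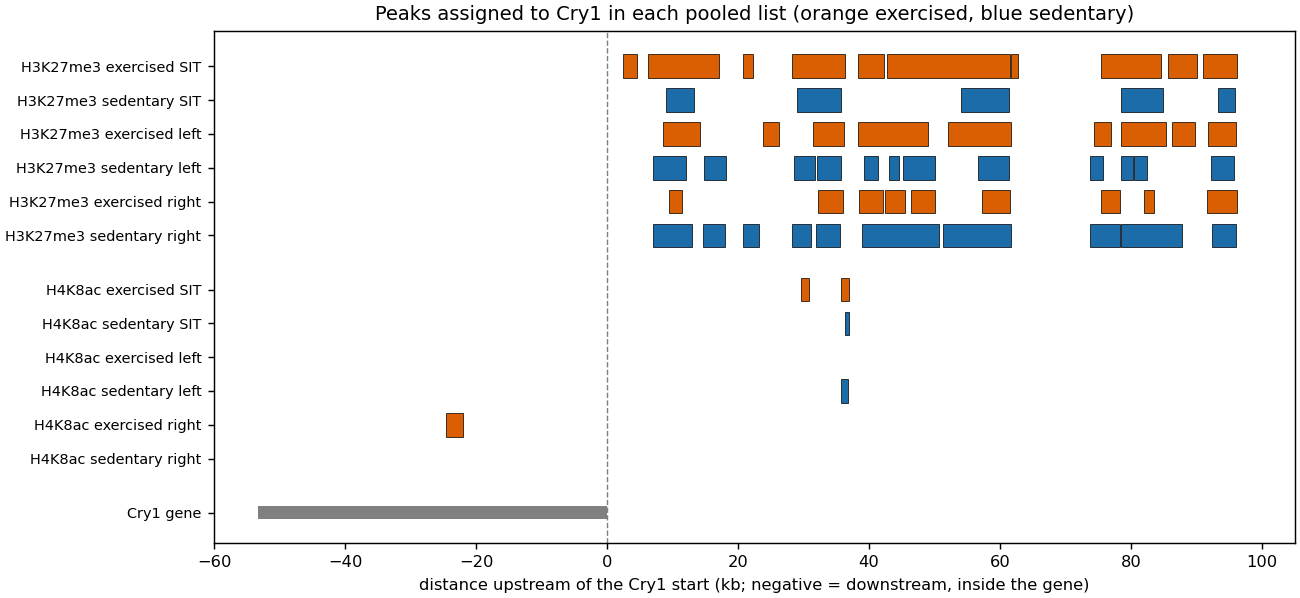
Peaks assigned to Cry1 in each of the 12 lists, drawn by distance upstream of the Cry1 start in kb (orange exercised, blue sedentary, grey the gene). The H3K27me3 bars of every list fall between 2.51 and 96.19 kb upstream, with gaps, and the small H4K8ac bars of 3 lists fall together 35.67 to 37.03 kb upstream, at a gap of the H3K27me3 bars.

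Nr1d1 (chr11:98767932-98775333, minus strand) had H4K8ac in all 6 lists, and its start was never nearer than 5.6 kb to a peak. The summed width was 3384 bp in exercised SIT, 1019 bp in sedentary SIT, 3259 bp in exercised left, 5942 bp in sedentary left, 1602 bp in exercised right and 2973 bp in sedentary right. In 5 lists, all but sedentary SIT, the peak lay upstream in chr11:98780895-98786836, and 1203 bp (chr11:98781961-98783163) were common to the 5. Sedentary SIT had its only peak 7.82 to 8.83 kb after the start, past the end of the gene, and sedentary right had a further one 5.96 to 7.42 kb after it. Both were classed as promoter and lie over the end of the neighbour Thra on the opposite strand.

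The far side of the upstream region had been assigned to another gene in part. In 4 lists, exercised SIT, both exercised separate isolations and sedentary right, a second peak at chr11:98784709-98786779 was given to Msl1, whose start is 20.2 kb from that of Nr1d1, and in sedentary left a single peak given to Nr1d1 spanned both places. By position each of these 5 lists therefore covered 2 upstream sites. The nearer site held 2 variant E-boxes and a D-box under peaks of 5 lists and an E-box under peaks of 3. The farther held a cAMP response element and a REV-ERB/ROR element under peaks of 5 lists and a variant E-box under peaks of 4. Those under 5 lists are shown with the motifs in capitals (chr11:98782031-98782283, chr11:98782961-98783066 and chr11:98785803-98786000, minus strand).
Nr1d1 near upstream: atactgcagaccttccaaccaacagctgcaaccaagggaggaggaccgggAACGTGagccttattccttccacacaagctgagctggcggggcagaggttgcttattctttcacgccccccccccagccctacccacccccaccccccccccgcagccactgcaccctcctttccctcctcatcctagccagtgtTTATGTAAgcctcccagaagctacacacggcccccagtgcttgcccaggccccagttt
Nr1d1 near upstream, second: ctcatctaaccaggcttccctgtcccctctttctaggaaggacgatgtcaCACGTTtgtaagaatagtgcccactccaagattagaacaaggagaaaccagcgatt
Nr1d1 far upstream: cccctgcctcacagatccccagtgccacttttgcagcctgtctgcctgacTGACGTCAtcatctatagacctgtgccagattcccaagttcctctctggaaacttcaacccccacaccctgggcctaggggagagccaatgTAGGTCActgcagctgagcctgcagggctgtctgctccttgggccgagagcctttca

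Dbp (chr7:45705088-45710203, plus strand), the output factor, had 1 peak in exercised SIT of 1668 bp and 1 in sedentary left of 2233 bp, and none in the other 4 lists. The 2 peaks shared 1559 bp (chr7:45705875-45707433), starting 0.79 kb after the first start of the gene. Dbp was thus gained in SIT and lost in the left isolation at the same place. In the lists without it the nearest H4K8ac peak was 3.5 to 4.5 kb from the start.

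Bhlhe40 (chr6:108660629-108666925, plus strand) had 1 promoter peak in 5 lists, all but exercised left. The widths were 1898 bp in exercised SIT, 1312 bp in sedentary SIT, 1507 bp in sedentary left, 1733 bp in exercised right and 1238 bp in sedentary right. The exercised peak was the wider in SIT and in right. All 5 shared 917 bp, chr6:108658296-108659212, which lie 1.42 to 2.33 kb before the start and within the non-coding transcript Gm17055. They held a REV-ERB/ROR element, shown in capitals in chr6:108658501-108658607 (plus strand).
Bhlhe40 upstream: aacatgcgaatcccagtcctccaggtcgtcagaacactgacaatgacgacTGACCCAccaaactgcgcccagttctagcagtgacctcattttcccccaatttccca
Exercised left, in which Bhlhe40 counted as lost, still had H4K8ac beside the gene. A region 0.91 kb past the end of the gene, chr6:108667833-108669753, was under a peak in 5 lists, exercised left among them and sedentary SIT not, with 1043 bp in common. Its peaks were assigned to 0610040F04Rik, whose start is 0.3 kb from that of Bhlhe40 on the other strand. Counted by position within 3 kb of the gene, Bhlhe40 had H4K8ac in all 6 lists.

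**Figure D4:**
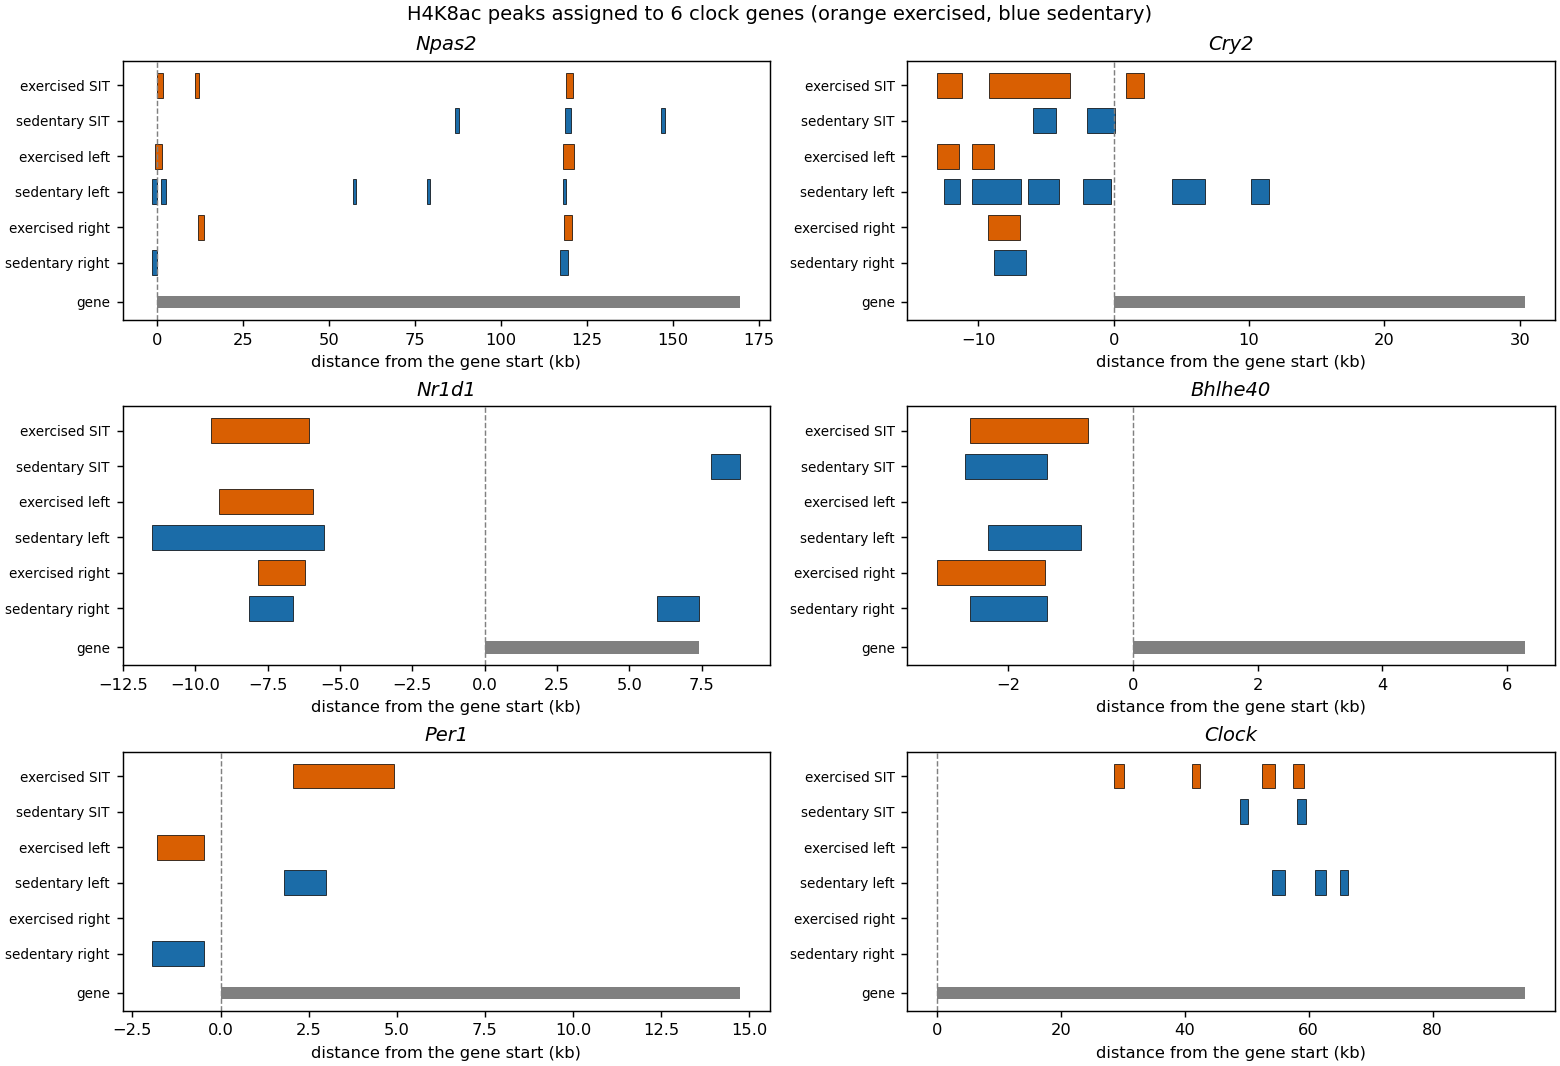
H4K8ac peaks assigned to 6 clock genes, drawn by distance from the first start of each gene in kb (1 line per list, orange exercised, blue sedentary, grey the gene). Npas2 peaks of all 6 lists fall together 117.24 to 121.23 kb into the gene, those of Nr1d1 in 5 lists 5.56 to 11.5 kb upstream, and those of Per1 at 2 separate places.

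Read together by promoter status, no 2 clock genes had the same H4K8ac pattern over the 6 lists. The closest pairs had the same status in 5 of 6, Per1 with Npas2, Per2 with Cry1, Per3 with Cry1, Per3 with Dbp, Cry1 with Clock, Cry2 with Dbp and Clock with Dbp. Cry1 had no promoter peak in any list, so its pairs share absences. The pairs of Dbp agreed mostly in lists where neither gene had a promoter peak. By a peak of any class, Cry2, Npas2 and Nr1d1 had the same status in all 6 lists.

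The distance to H3K27me3 was also measured for every gene. The median over the 10 clock genes was 102.2 to 180.6 kb from list to list, beside 74.0 to 181.3 kb over all protein-coding genes. The clock genes were the nearer in sedentary SIT (132.0 beside 161.9 kb) and exercised right (132.2 beside 181.3 kb) and the farther in the other 4 lists. For the 9 genes without an H3K27me3 peak, the median distance from the start to the nearest one was taken over the 6 lists. It was shortest for Clock at 57.2 kb and longest for Bhlhe40 at 1893.1 kb. In each list 1 of the 10 genes, Cry1, had a peak within 10 kb of its start, beside 11.0 to 21.4% of all protein-coding genes. No clock gene start was inside an H3K27me3 peak, where 5.03 to 10.4% of all gene starts were.

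Of 20 other clock genes in SIT, 4 were gained in H4K8ac, 1 lost and 8 shared, in left 0 were gained, 8 lost and 5 shared, and in right 1 was gained, 4 lost and 6 shared. As shares of those listed in either condition (13 in SIT, 13 in left and 11 in right), 30.8% were gained and 7.69% lost in SIT, 0.0% and 61.5% in left, and 9.09% and 36.4% in right. The same shares of all listed genes were 27.5% and 10.1% in SIT, 3.58% and 51.9% in left, and 9.14% and 36.7% in right. Bhlhe41, the paralog of Bhlhe40, was the one gene of these 20 lost in all 3 isolations. It had 0 peaks in the exercised lists and 1, 3 and 2 in sedentary SIT, left and right. The share of all genes lost in all 3 isolations was not computed. H3K27me3 was found in at least 3 lists at 6 of the 20, beside 19.8% of all protein-coding genes. Rora and Rorb, which encode the ROR activators of Bmal1, had it in 6 lists, with 152 and 59 peaks in total, 6 of them at promoters in each gene. Fbxl21, a relative of the ubiquitin ligase subunit that targets CRY proteins, had 1 distal intergenic peak in each of 6 lists. Nfil3, a repressor at D-boxes, had it in 5, and Hlf, a relative of Dbp, and the kinase gene Csnk1e had it in 3. Rorb had no H4K8ac peak in any list and Rora had 2 peaks, in sedentary left and sedentary right. For H3K27me3, 2 of 6 listed in either condition were gained and 0 lost in SIT, 1 of 5 gained and 0 lost in left, and 0 of 7 gained and 3 lost in right, beside 41.4% and 1.02%, 18.5% and 9.13%, and 3.12% and 43.6% of all listed genes in the same order.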

How the data were processed

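CUT&RUN-seq libraries of hippocampal nuclei were grouped by antibody, condition and isolation from the labels. Per the paper's methods, the authors checked reads with FastQC (version 0.11.9), aligned them with Bowtie2 (version 2.4.1), called peaks with SEACR and assigned each to a gene by distance to a start or by lying within the gene with ChIPseeker (version 1.8.6) in mm10. The deposited tables give positions and widths in bp, an annotation class and a gene symbol, per the file headers, and no counts, so the depth of each list is unknown and intervals cannot be given. Starts are given as deposited and may be 1 bp low, since a start of 0 occurs. How libraries were pooled is not given in the sources used here.

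Genes came from GENCODE M21, and promoter sequences from RefSeq (GRCm38.p6). Peaks of a mark were merged where they shared at least 1 bp, and gene windows ran 3000 bp beyond each gene. Interval code was checked on 200 random sets of intervals, all of which matched a base-by-base count. Python 3.11.15, numpy 2.4.6, pandas 2.3.3 and matplotlib 3.10.9 were used. The 10 genes, the 20 other clock genes, the motifs and the markers were chosen with earlier results of these data known. All 10 were described. Other clock genes were named where H3K27me3 was in at least 3 lists or H4K8ac changed the same way in 3 isolations, neighbours where they took a peak of a clock gene window, and pairs by equal promoter status. Msl1, Thra, Gm17055, Gm38575 and Btbd11 were named after their positions were seen.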

Additional observations from a re-analysis of the deposited data

Results flagged for a closer look

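For 8 of the 10 clock genes the exercised minus sedentary difference in summed H4K8ac peak width ran in opposite directions between isolations. So did the bases covered by all H4K8ac peaks together, and the share of all genes that did was not computed. With 1 pooled list per group, none of the gene differences was tested. At Per1 the difference was 2882 bp in SIT, where the gene was gained. It was 141 bp in left and -1489 bp in right, where Per1 was lost. At Dbp it was 1668 bp in SIT (gained) and -2233 bp in left (lost). At Cry1 it was 1928 bp in SIT, -1134 bp in left (lost) and 2478 bp in right (gained). At Clock it was 4102 bp in SIT and -5355 bp in left (lost), and at Bhlhe40 586 bp in SIT, -1507 bp in left (lost) and 495 bp in right. Cry2, Npas2 and Nr1d1 had a peak in both lists of every isolation. The difference at Cry2 was 5359 bp in SIT, -9762 bp in left and -10 bp in right. At Npas2 it was 1370 bp, -79 bp and 362 bp, and at Nr1d1 2365 bp, -2683 bp and -1371 bp, in the same order. All H4K8ac peaks together covered more bases in exercised mice in SIT and fewer in left and right, with ratios of 1.73, 0.391 and 0.437.

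For H3K27me3 at Cry1 the difference was 37780 bp in SIT, 12403 bp in left and -28568 bp in right. All H3K27me3 peaks together covered more bases in exercised mice in SIT and left and fewer in right, with ratios of 1.88, 1.25 and 0.36.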

How the results depend on the processing

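Of 89 alternative values for 25 counts, 52 stayed within 1.5 times the reported count and 37 did not. With promoter peaks alone, clock genes with H4K8ac fell to 2 in exercised left and 2 in exercised right, SIT had 1 lost gene, and right had 1 gained and 3 lost. With distal intergenic peaks left out, exercised left had 2, and 1 gene was lost in SIT and 2 in right. Counting any peak over the gene window, 1 was lost in SIT and 2 in right. Counting genes with a start site inside a peak, exercised SIT had 5, sedentary SIT 1, exercised left 1 and sedentary left 2. Exercised right had 0 and sedentary right 1. By that count 4 were gained in SIT, 1 lost in left and 0 gained in right, and 0 genes had H3K27me3. For all protein-coding genes, H4K8ac lay over the first start in 18.5% in exercised and 7.55% in sedentary SIT. It did in 4.74% and 13.0% in left, and in 5.89% and 11.1% in right. With the widest 50% of each list, exercised left had 2, sedentary left 5 and sedentary right 2, with 1 gained in left and 0 lost in right. With lists of an isolation reduced to equal length, left had 2 gained and 2 lost, and right 4 gained and 0 lost. A gene window of 1000 bp gave 3 genes in exercised right, and one of 10000 bp gave 6 in exercised left and 8 in exercised right. Requiring a reciprocal overlap of 50%, exercised H4K8ac peaks that overlapped a sedentary one fell to 3 in SIT and 2 in left, and H3K27me3 peaks to 3 in SIT, 4 in left and 3 in right. The shares of all genes gained or lost under these settings were not computed, and the causes were not tested.

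No paired analysis was possible because the lists pool the libraries of a group, and leaving out a replicate was not run for the same reason. The depth of each list is not given, so a gene without a peak was not detected in that list, not shown to lack the mark.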
